A study of Mus musculus with 7 samples.

Results

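The annexins are a family of proteins that bind acidic phospholipids of the cell membrane in the presence of calcium. Their transcripts were followed here in the mouse extrahepatic bile duct (EHBD) after ligation. The members were the 10 annexin genes Anxa1, Anxa2, Anxa3, Anxa4, Anxa5, Anxa6, Anxa7, Anxa8, Anxa9 and Anxa13, found in the deposited 48 h count table by their Ensembl gene identifiers. They made up 10 of 56065 genes in the table, and all 10 had enough reads to be among the 25209 genes tested. The remaining family members Anxa10 and Anxa11 were not among the 10 and are given with the related genes.

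EHBDs were collected 48 h after bile duct ligation (BDL, 4 libraries) or sham surgery (3 libraries) and profiled by bulk RNA-Seq of whole tissue. All mice were adult wild-type animals, C57BL/6 in the labels and C57BL/6J in the study's methods, and all had a laparotomy. BDL blocked the outflow of bile by a tie on the duodenal side of the duct, and the sham group had no tie. BDL replicates 1 and 2 came from males and BDL replicates 3 and 4 from females, whereas sham replicate 1 came from a female and sham replicates 2 and 3 from males. The study counts the samples of these groups as mice, although the labels name no animals.

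An annexin consists of a conserved core of repeats, not all of which hold calcium, and a variable amino-terminal tail that gives the member its partners. The core docks on the inner face of the plasma membrane or on endosomes when calcium rises, as it does at a membrane wound, while the tails of Anxa1 and Anxa2 bind small S100 proteins. Several annexins also act outside the cell: Anxa1 is a glucocorticoid-regulated ligand of formyl peptide receptors that limits neutrophil entry, Anxa2 with S100a10 is a cell-surface platform for plasminogen activation, and Anxa5 covers exposed phosphatidylserine.

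Total depth was similar across libraries, at 48882420 to 61291821 estimated counts. Transcripts of neighbouring organs differed between libraries. The 15 pancreatic acinar markers took 0.128%, 4.44%, 5.82% and 0.00232% of counts in BDL replicates 1 to 4, against 10.2%, 5.07% and 22.3% in sham replicates 1 to 3, and the 12 hepatocyte markers took 1.32%, 0.00871%, 0.0133% and 4.41% in BDL, against 0.0513%, 0.157% and 0.112% in sham. Biliary epithelial markers were present in every library, with Epcam, an epithelial adhesion molecule, at 511.8 to 874.8 CPM (counts scaled to the size of each library, with TMM, a trimmed mean of ratios, as the scaling factor) in BDL and 420.7 to 705.3 CPM in sham. The TMM factor was 0.6082 in sham replicate 3, the library with the most acinar transcripts, and 1.025 to 1.172 in the others. The scaled size of sham replicate 3 was thus well below its total. Alternatives without single libraries, without the pairs of BDL libraries rich in hepatocyte or acinar transcripts, and without the digestive enzyme genes were therefore run for every annexin.

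The stretches below are the 250 bases that precede the start of the Ensembl canonical transcript on mouse build GRCm39, with gene models from GENCODE release 39. They are shown for 3 of the members that were higher after BDL and, for contrast, for Anxa13, which was not called. Capitals mark a match to 1 of 4 motifs. The AP-1 element was searched as TGANTCA on both strands. The TEAD element was searched as GGAATG on both strands. The glucocorticoid receptor site was searched by the 6 letters AGAACA on both strands. The core promoter box was searched as TATAAA on the forward strand only. No matches overlapped one another.
Anxa2 (chr9:69360652-69360901, + strand): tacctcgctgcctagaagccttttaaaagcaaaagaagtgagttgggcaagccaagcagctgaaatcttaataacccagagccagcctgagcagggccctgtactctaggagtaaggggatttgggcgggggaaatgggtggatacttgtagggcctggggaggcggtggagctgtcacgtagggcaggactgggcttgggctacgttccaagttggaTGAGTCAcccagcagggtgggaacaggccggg
Anxa3 (chr5:96940933-96941182, + strand): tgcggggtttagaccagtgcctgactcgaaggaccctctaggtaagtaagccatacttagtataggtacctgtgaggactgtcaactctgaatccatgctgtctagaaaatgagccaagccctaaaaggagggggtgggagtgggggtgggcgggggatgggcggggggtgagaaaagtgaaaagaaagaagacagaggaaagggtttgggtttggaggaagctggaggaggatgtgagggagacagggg
Anxa8 (chr14:33807686-33807935, + strand): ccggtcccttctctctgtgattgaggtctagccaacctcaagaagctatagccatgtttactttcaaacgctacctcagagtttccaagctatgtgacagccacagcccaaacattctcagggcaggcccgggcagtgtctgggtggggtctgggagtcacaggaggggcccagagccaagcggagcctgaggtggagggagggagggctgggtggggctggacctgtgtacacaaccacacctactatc
Anxa13 (chr15:58261130-58261379, - strand): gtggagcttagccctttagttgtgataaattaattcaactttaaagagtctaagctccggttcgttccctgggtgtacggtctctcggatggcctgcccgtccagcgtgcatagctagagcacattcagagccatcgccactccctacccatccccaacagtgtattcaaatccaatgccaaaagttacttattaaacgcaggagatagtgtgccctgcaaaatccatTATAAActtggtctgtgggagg

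The Anxa2 window held 1 AP-1 match, TGAGTCA, whose first base lies 32 bases before the start. AP-1 matches were present in 6.17% of the windows of 21770 protein-coding genes. The Anxa3 and Anxa8 windows held no match to any of the 4 motifs. The Anxa13 window held a TATAAA match 22 bases before the start, a match found in 8.03% of windows. Among the members not printed, Anxa6 had an AGAACA match 243 bases before the start (14.3% of windows held one) and Anxa9 a TEAD match on the reverse strand 63 bases before it (12.1% of windows). The windows of Anxa1, Anxa4, Anxa5 and Anxa7 held no match. The Anxa1 window is largely a run of CTT and CTC repeats, with C or T at 91.2% of its bases, and the members' GC content ran between 42.4% and 62.8%, against a median of 53.2% over all windows. The Anxa2, Anxa3 and Anxa4 windows lie inside the annotated gene, and the Anxa5 window in part, because other annotated transcripts start further upstream. The AP-1 match of Anxa2 thus precedes the canonical start and not the first annotated start. A match is a description of letters and not a measured binding site.

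Of the 10 annexins, 4 rose after BDL and none fell. With the edgeR quasi-likelihood test (sex and surgery in the model) and Benjamini-Hochberg adjustment over all 25209 genes, Anxa8 rose 8.26-fold, Anxa2 4.2-fold, Anxa1 4-fold and Anxa3 2.25-fold, and Anxa4, Anxa5, Anxa6, Anxa7, Anxa9 and Anxa13 did not pass an adjusted p of 0.05. The background is large in this comparison, since 22.8% of all genes tested were called, 11.8% higher in BDL and 11% lower. BDL and sham libraries did not overlap for 6 annexins, 5 of them higher in BDL, compared with 36.6% of all genes that did not overlap in either direction. The median log2 fold change of the 10 annexins was 0.42, beside -0.01 over all genes tested. In bulk tissue, more or fewer cells of a type and more or less RNA per cell cannot be told apart.

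**Figure D1:**
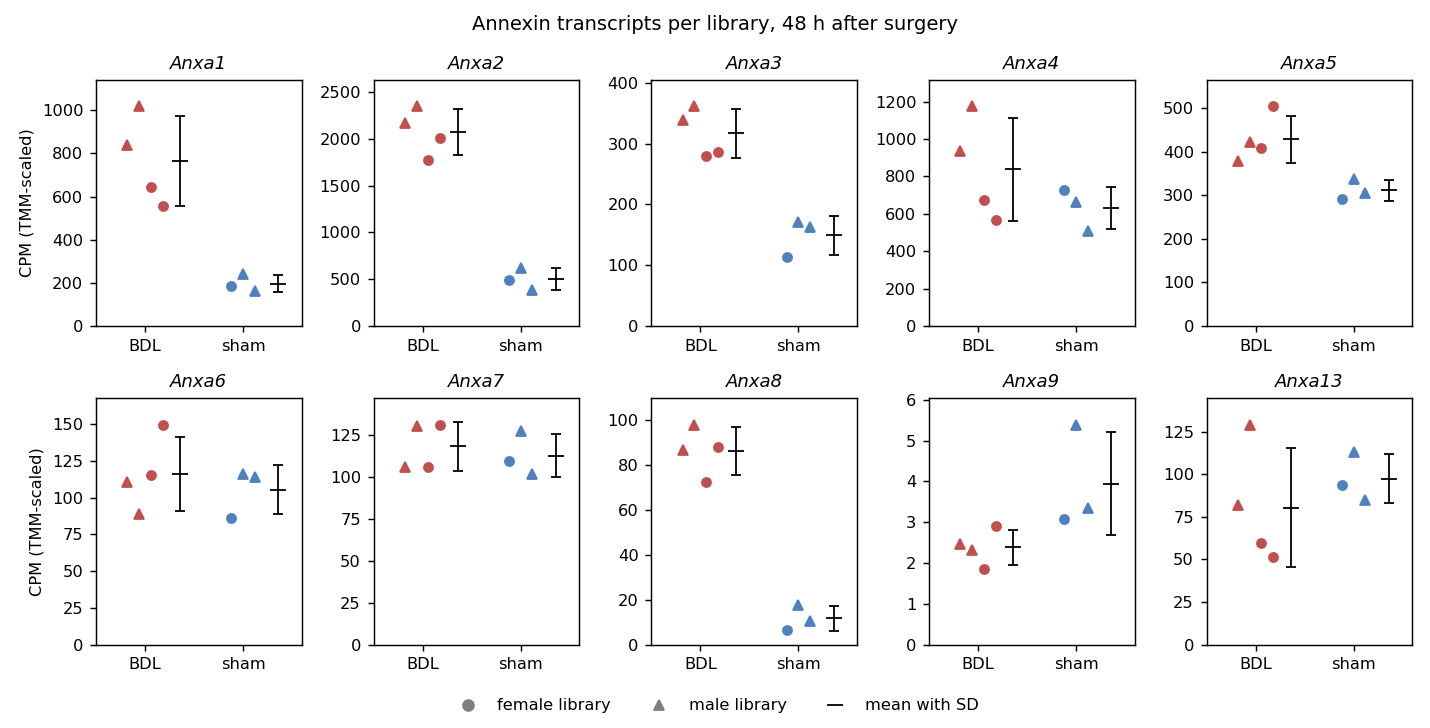
Transcript level of each annexin in CPM (linear axes from 0) in the 4 BDL and 3 sham EHBDs at 48 h; each point is 1 library (circles female, triangles male) and the bars are the mean with SD. For Anxa1, Anxa2, Anxa3 and Anxa8 the lowest BDL point lies above the highest sham point, whereas the BDL and sham points of Anxa4, Anxa6, Anxa7 and Anxa13 overlapped.

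Anxa1 lies on chromosome 19 at 20350792 to 20368374 (GRCm39, minus strand, 13 exons in the canonical transcript). It had 839.3, 1019, 643.4 and 556.7 CPM in BDL replicates 1 to 4, against 183.5, 240.6 and 163.4 CPM in sham replicates 1 to 3. The lowest BDL library was well above the highest sham library, and both male BDL libraries were above both female ones. Anxa1 averaged 764.6 ± 206.7 CPM in BDL (SD, n = 4) and 195.8 ± 40.05 CPM in sham (SD, n = 3), and the difference of 2.0 on the log2 scale (SE 0.26) passed the edgeR test at an adjusted p of 0.00259.

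Anxa2 (chromosome 9, 69360542 to 69399077, plus strand, 13 exons) is the member that works in endosome traffic, actin attachment and plasminogen activation, and per length it ranked first in both groups. It had 2171, 2350, 1775 and 2004 CPM in BDL, against 492.4, 622.3 and 389.6 CPM in sham. The groups were far apart relative to their spread, at 2075 ± 244.6 CPM in BDL (SD, n = 4) and 501.4 ± 116.6 CPM in sham (SD, n = 3). The log2 fold change was 2.07 (SE 0.30), with an adjusted p of 0.0037 in edgeR.

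Anxa3 (chromosome 5, 96940544 to 96993828, plus strand, 13 exons), a phospholipase-inhibiting annexin also found in neutrophil granules, changed less. It stood at 338.7, 361.9, 280.6 and 286.6 CPM in BDL, against 113.1, 172 and 162.7 CPM in sham. No BDL library fell to the sham range, and the female sham library was the lowest of the 7. The means were 316.9 ± 39.75 CPM in BDL (SD, n = 4) and 149.2 ± 31.68 CPM in sham (SD, n = 3), and the change was 1.17 on the log2 scale (SE 0.17, edgeR adjusted p 0.00388).

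Anxa8 (chromosome 14, 33807936 to 33822528, plus strand, 12 exons) is an annexin of stratified and other surface epithelia that has been tied to endosome organisation. Its levels were 86.4, 97.76, 72.06 and 87.74 CPM in BDL, against 6.568, 17.73 and 10.54 CPM in sham. This was the largest fold change among the 10 annexins and the one with the widest relative spread among sham libraries, where the highest was sham replicate 2 and the lowest the female sham replicate 1. The sham values rested on 341 to 1141 estimated counts a library, so the low levels were still well counted. Anxa8 averaged 85.99 ± 10.58 CPM in BDL (SD, n = 4) and 11.61 ± 5.658 CPM in sham (SD, n = 3), which is 3.05 on the log2 scale (SE 0.29), at an edgeR adjusted p of 0.000923.

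**Figure D2:**
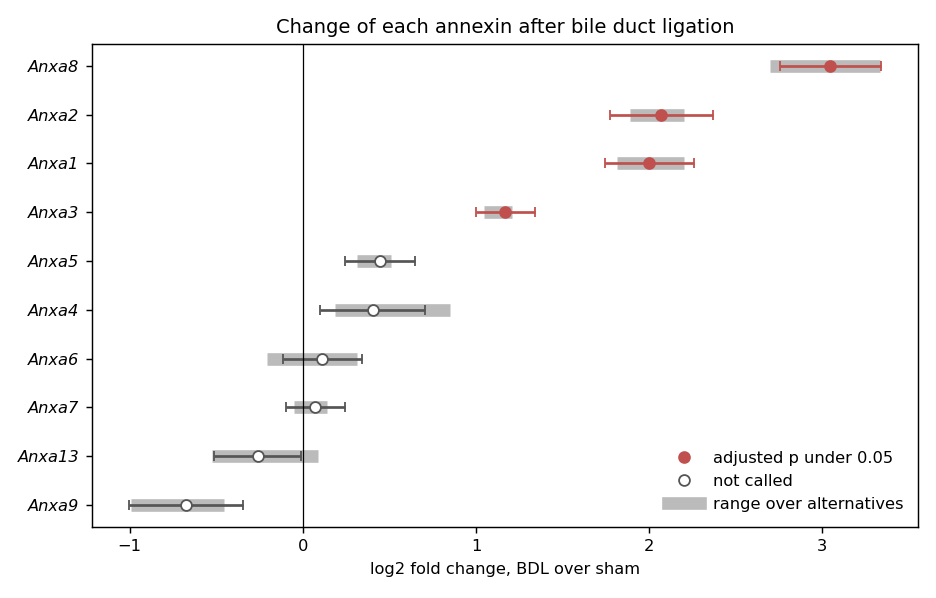
Log2 fold change of each annexin, BDL over sham, from the edgeR fit; points are estimates, whiskers are 1 SE and grey bars span 18 alternative analyses. The grey bars of Anxa8, Anxa2, Anxa1 and Anxa3 stay above 1, whereas those of Anxa6, Anxa7 and Anxa13 cross 0.

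These 4 calls held in all 18 alternative analyses, in which the log2 fold change ranged from 1.82 to 2.20 for Anxa1, 1.89 to 2.20 for Anxa2, 1.05 to 1.21 for Anxa3 and 2.70 to 3.33 for Anxa8. The highest adjusted p over the alternatives was 0.0127 for Anxa1, 0.0204 for Anxa2, 0.0237 for Anxa3 and 0.00727 for Anxa8. The differences were about as large without either pair of BDL libraries. Without BDL replicates 1 and 4, which carried the hepatocyte transcripts, the log2 fold change was 2.11 for Anxa1, 2.06 for Anxa2, 1.19 for Anxa3 and 3.07 for Anxa8. Without BDL replicates 2 and 3, which carried most acinar transcripts in BDL, it was 1.86 for Anxa1, 2.07 for Anxa2, 1.15 for Anxa3 and 3.10 for Anxa8.

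Among the members that were not called, Anxa5 (chromosome 3, 36503072 to 36530126, minus strand), the annexin used to stain dying cells because it binds phosphatidylserine, came closest to the threshold. It had 377.8, 423.4, 408.2 and 504.8 CPM in BDL, against 291.3, 338.6 and 305.1 CPM in sham. Every BDL library was above every sham library, but the difference was small, with a log2 fold change of 0.45 (SE 0.20) and an edgeR adjusted p of 0.152. Over the alternatives its adjusted p ran from 0.0535 to 0.416 and never passed. Over its exons, 6.46% of bases are shared with the opposite-strand gene 1810062G17Rik, and the library kit does not record strand.

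Anxa4 (chromosome 6, 86713675 to 86771064, minus strand) is an annexin of secretory epithelia that modulates chloride conductance and membrane stiffness. Its libraries ranged widely, at 935.3, 1176, 672.1 and 566.6 CPM in BDL, against 725.4, 663.4 and 505.6 CPM in sham. Both male BDL libraries were above all sham libraries, while the female BDL libraries lay within the sham range. The log2 fold change of 0.40 (SE 0.30) did not pass the test (edgeR adjusted p 0.373) and moved between 0.19 without sham replicate 3 and 0.85 without sham replicate 1, where the adjusted p was 0.116. The opposite-strand lncRNA Gm44036 shares 12.2% of the exonic bases.

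For Anxa6 and Anxa7 no difference was detected. Anxa6 (chromosome 11, 54869654 to 54924305, minus strand), whose core is duplicated and whose canonical transcript has 25 exons, takes part in cholesterol traffic and had 110.3, 88.98, 115.2 and 149.7 CPM in BDL, against 86.01, 116 and 113.9 CPM in sham. Anxa7 (chromosome 14, 20505328 to 20530201, minus strand), also called synexin for its part in membrane fusion during secretion, had 105.7, 130.5, 105.7 and 131.3 CPM in BDL, against 109.4, 127.2 and 101.8 CPM in sham. Their log2 fold changes were 0.11 (SE 0.23, adjusted p 0.753 in edgeR) and 0.07 (SE 0.17, adjusted p 0.79), and the sign of both depended on the scaling and on single libraries. A change as small as that of Anxa5 could not have been detected with these errors.

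Anxa9 and Anxa13 were the only members with lower means after BDL, and neither passed the test. Anxa9 (chromosome 3, 95201207 to 95214770, minus strand) is unusual in that the calcium sites of its core are thought not to function, and it was scarce, with 113 to 347 estimated counts a library. It had 2.469, 2.328, 1.86 and 2.899 CPM in BDL, against 3.082, 5.392 and 3.354 CPM in sham, so the groups did not overlap. The log2 fold change was -0.67 (SE 0.33, edgeR adjusted p 0.179), and 19.3% of its exonic bases are shared with the opposite-strand gene Mindy1, whose reads cannot be told from those of Anxa9 there. Anxa13 (chromosome 15, 58202792 to 58261129, minus strand), a lipid-anchored annexin of gut and kidney epithelium, had 81.79, 129.2, 59.49 and 51.51 CPM in BDL, against 93.97, 113.3 and 85.1 CPM in sham. Its log2 fold change was -0.26 (SE 0.25, edgeR adjusted p 0.487), with BDL libraries on both sides of the sham range.

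Levels of different annexins were compared as CPM per kilobase of canonical transcript, which assumes that this isoform is the one expressed. In BDL the order was Anxa2 (1434 ± 169 CPM per kb, SD), Anxa1 (439.4), Anxa4 (386.5), Anxa5 (247.6), Anxa3 (191), Anxa8 (45.69), Anxa6 (41.67), Anxa7 (41.49), Anxa13 (23.12) and Anxa9 (0.5512). The BDL ranges overlapped for the neighbours Anxa1 and Anxa4, Anxa4 and Anxa5, Anxa8 and Anxa6, Anxa6 and Anxa7, and Anxa7 and Anxa13, so those places in the order are not separated beyond the spread of libraries. In sham the order was Anxa2 (346.5 ± 80.58 CPM per kb, SD), Anxa4 (291.4), Anxa5 (180.1), Anxa1 (112.6), Anxa3 (89.96), Anxa7 (39.58), Anxa6 (37.81), Anxa13 (27.99), Anxa8 (6.171) and Anxa9 (0.9097), with overlapping ranges for Anxa2 and Anxa4, Anxa1 and Anxa3, Anxa7 and Anxa6, and Anxa6 and Anxa13. Anxa1 thus took rank 2 in BDL and rank 4 in sham, and Anxa8 rank 6 in BDL and rank 9 in sham.

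**Figure D3:**
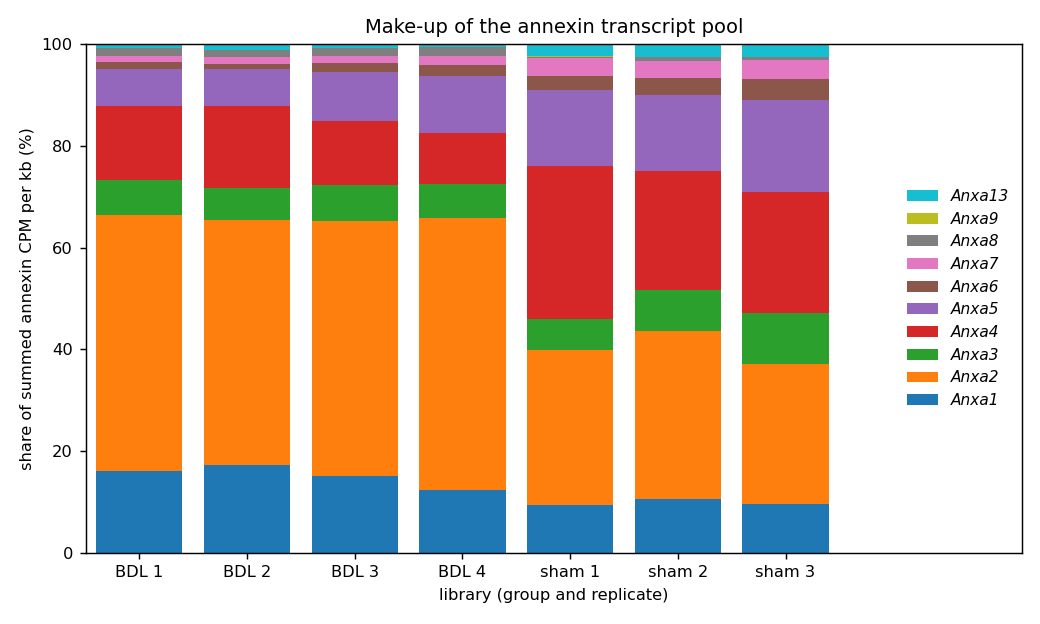
Share of each annexin in the summed CPM per kb of the 10 members (stacked to 100%), 1 bar per library. Anxa2 took 50.5% on average in BDL, against 30.3% in sham, while the Anxa4 band narrowed to 13.3% in BDL, against 25.8% in sham.

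The summed annexin pool did not overlap between BDL and sham. Summed over the 10 members it came to 2983, 3382, 2446 and 2593 CPM per kb in BDL, against 1117, 1303 and 978.3 in sham. Its make-up differed as well: Anxa2 took 50.5 ± 2.23% of the pool in BDL (SD, n = 4) and 30.3 ± 2.74% in sham (SD, n = 3), and Anxa1 took 15.2 ± 2.13% in BDL and 9.88 ± 0.635% in sham. Shares of the members that did not rise were lower in BDL, at 13.3 ± 2.56% against 25.8 ± 3.63% in sham for Anxa4 and 0.788 ± 0.224% against 2.47 ± 0.0476% in sham for Anxa13. The mean share of Anxa3, which was called higher, was also lower, at 6.72 ± 0.208% in BDL and 8.03 ± 1.96% in sham. These shares are tied to each other and were not tested.

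Within the BDL group, both male libraries had more Anxa1, Anxa2, Anxa3, Anxa4 and Anxa13 than both female libraries. Anxa6 ran the other way, and the sexes overlapped for Anxa5, Anxa7, Anxa8 and Anxa9. How many of all genes ran in either order was not counted, and with 2 libraries of each sex such an order can arise without a sex difference. Of the 8 biliary epithelial markers, 6 ran in the same order and Prom1 and Sox9 did not. Among the 6 were Epcam, at 874.8 and 804.6 CPM in the male BDL libraries and 646.3 and 511.8 CPM in the female ones, and Cdh1, the adherens junction cadherin of epithelia, at 1042 and 1100 CPM in males and 553 and 566.6 CPM in females. Prom1, a stem cell and biliary surface protein, had 675.7 and 711.3 CPM in the male BDL libraries and 878.3 and 415.5 CPM in the female ones. The part of epithelial content in these annexin values was not tested. A surgery by sex term called no annexin, and no gene at all, in edgeR, where 1742 genes had an unadjusted p under 0.05, although DESeq2 called 459 genes and edgeR without a filter on low counts called 56. The test had 3 residual degrees of freedom and rested on a single female sham library. Anxa6 had the smallest unadjusted p, 0.0493 (log2 difference, male minus female, -0.83, SE 0.34, adjusted p 0.715 in edgeR), and Anxa4 the next, 0.064 (1.08, SE 0.48, adjusted p 0.718 in edgeR and 0.0652 in DESeq2).

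Markers of the cells that could carry annexin transcripts did not all move with them. Their counts stand beside 11.8% of all genes called higher in BDL and 11% called lower. Of 8 biliary epithelial markers, 4 keratins rose, Sox9 fell and 3 did not pass. On the log2 scale Krt7 was higher by 2.41 (SE 0.23), Krt8 by 1.62 (SE 0.31), Krt19 by 1.35 (SE 0.29) and Krt18 by 0.98 (SE 0.24). Krt7 thus differed by about as much as Anxa1 and Anxa2. Sox9 was at -0.84 (SE 0.23, edgeR adjusted p 0.0393). The 3 that did not pass were Epcam (0.34, SE 0.30), Cdh1 (0.39, SE 0.32) and Prom1 (-0.80, SE 0.33). The summed biliary list ran from 7172 to 11420 CPM in BDL and from 4478 to 5961 CPM in sham. The keratins weighed on this sum, with Krt8 alone at a mean of 2761 CPM in BDL and 905.1 CPM in sham. Epcam and Cdh1 overlapped between the groups, and for Prom1 and Sox9 every BDL library was below every sham library. Neutrophils are rich in Anxa1 and Anxa3, and 4 of 7 neutrophil markers rose, each without overlap between BDL and sham. On the log2 scale S100a8 was higher by 3.002 (SE 0.765), S100a9 by 2.996 (SE 0.715), Mmp8 by 4.781 (SE 0.748) and Ngp by 6.26 (SE 0.93). Ltf (-1.014, SE 0.658), Retnlg (0.3549, SE 1.08) and Csf3r (-0.0008411, SE 0.314) did not pass. The summed list overlapped, at 35.3 to 178.5 CPM in BDL and 50.68 to 78.73 CPM in sham, where Ltf alone had 42.47 to 50.69 CPM. Among the BDL libraries, summed neutrophil markers were highest in replicate 4 and lowest in replicate 2. Anxa1 was lowest in replicate 4 and highest in replicate 2, and Anxa3 was lowest in replicate 3 and highest in replicate 2. Replicates 2 and 4 also differed in sex and in hepatocyte and acinar transcripts, and no relation between libraries was tested. The 3 general leukocyte markers summed to 39.1 to 72.03 CPM in BDL and 54.03 to 117.3 CPM in sham, with Ptprc, the pan-leukocyte phosphatase CD45, lower in BDL at 6.501 ± 1.49 CPM (SD, n = 4), against 30.6 ± 12.4 CPM in sham (SD, n = 3). Summed fibroblast markers ran from 5521 to 8100 CPM in BDL and from 3722 to 6179 CPM in sham, with 3 of 7 called higher and 2 lower. Col1a1, a chain of fibrillar collagen, was higher by 2.55 on the log2 scale (SE 0.38) and Dpt, a matrix protein of resting fibroblasts, was at -2.39 (SE 0.30), so single fibroblast genes differed by as much as Anxa1 and Anxa2 in both directions. Of 7 monocyte and macrophage markers, 0 were called higher and 3 lower. Mesothelium had 1 of 5 higher and 4 lower, and endothelium 0 of 4 higher and 2 lower. Smooth muscle had 1 of 5 higher and 1 lower, and the 3 tuft cell and 3 mucous gland markers were all lower. Cell cycle markers, all 6 of them higher, summed to 572.2 to 667 CPM in BDL and 7.941 to 23.5 CPM in sham. The part of these cell populations in the annexin differences was not tested.

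S100 proteins are small proteins that bind annexin tails as dimers and draw membranes together. Of 6 S100 partners tested, 4 rose (S100a6, S100a11, S100a4 and S100a10) and none fell, beside 11.8% higher and 11% lower over all genes. The list's median was 1.32 on the log2 scale. S100a11, the partner of Anxa1, had 1258, 1282, 1176 and 1170 CPM in BDL, against 237.2, 454.5 and 268.8 CPM in sham, or 2.0 higher on the log2 scale (SE 0.29, edgeR adjusted p 0.00402). S100a10, the partner of Anxa2, had 368.8, 350.6, 245.7 and 323.4 CPM in BDL, against 105.9, 202.2 and 107.5 CPM in sham. Its log2 fold change was 1.30 (SE 0.27, adjusted p 0.0134 in edgeR), and without sham replicate 1 it was 1.21 with a larger error (SE 0.35), which did not pass (adjusted p 0.0679). S100a4, a motility-linked S100, was higher by 1.34 (SE 0.35, adjusted p 0.0331 in edgeR) but kept its call in only 9 of 18 alternatives, with adjusted p up to 0.134. Without sham replicate 1 the list had 2 calls.

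**Figure D4:**
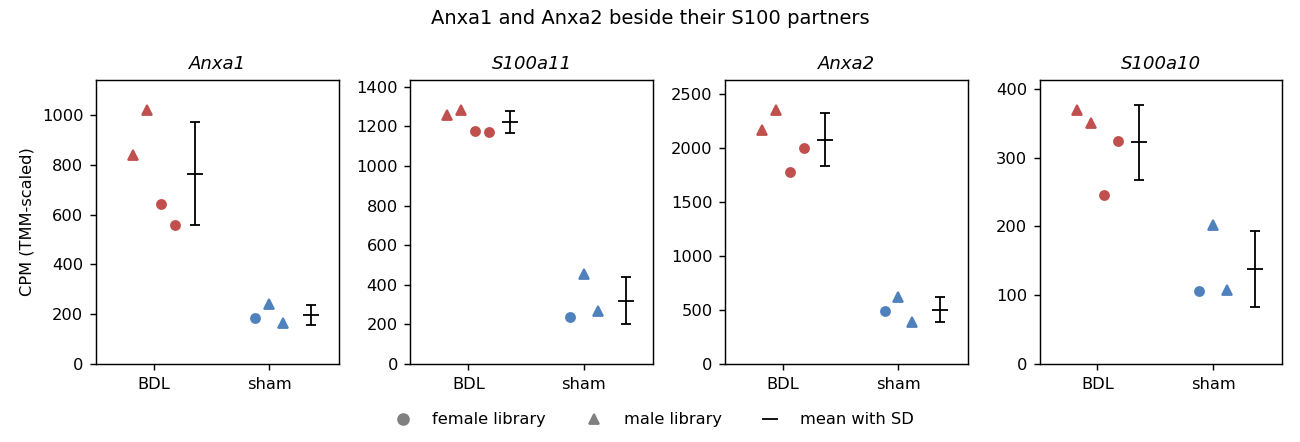
Levels in CPM of Anxa1 and Anxa2 and of the S100 genes whose proteins bind them, in 4 BDL and 3 sham libraries (circles female, triangles male, bars mean with SD). In all 4 panels the BDL points lie above the sham points without overlap, and sham replicate 2 was the highest sham library in each panel.

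The pairs kept different proportions. S100a11 counts were 1.67 ± 0.369 times those of Anxa1 in BDL (SD, n = 4) and 1.61 ± 0.3 times in sham (SD, n = 3). S100a10 counts were 0.17, 0.149, 0.138 and 0.161 times those of Anxa2 in BDL, against 0.215, 0.325 and 0.276 times in sham. The BDL and sham ratios of S100a10 to Anxa2 did not overlap, since Anxa2 differed more than its partner did. The ratios are of transcripts uncorrected for length and are read only between groups.

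The other partners of annexin function were looked up in lists of related genes. Anxa10, a gastric annexin, was scarce and had 4.142 ± 1.65 CPM in BDL (SD, n = 4) and 0.1309 ± 0.0827 CPM in sham (SD, n = 3), and was higher by 4.99 on the log2 scale (SE 0.65, adjusted p 0.00257 in edgeR). Anxa11, which tethers RNA granules to lysosomes, did not pass (0.65, SE 0.31, adjusted p 0.165 in edgeR), with 114, 131.4, 108.9 and 44.01 CPM in BDL, against 58.43, 73.83 and 63.69 CPM in sham. BDL replicate 4 was the lowest of all libraries, and Anxa11 was called higher without it (0.85, SE 0.14, adjusted p 0.0075), without BDL replicates 1 and 4 (0.91, adjusted p 0.016) and with an acinar covariate (1.07, adjusted p 0.0206). Of the formyl peptide receptors through which secreted Anxa1 acts, Fpr1 and Fpr2 were scarce, with 1.759 ± 1.29 and 0.5824 ± 0.479 CPM in BDL (SD, n = 4), against 0.7893 ± 0.866 and 0.3827 ± 0.201 CPM in sham (SD, n = 3). Neither was called with all libraries, and Fpr3 had too few reads to be tested. Without sham replicate 2, the sham library with the most Fpr1, Fpr1 was called higher (2.58, SE 0.56, adjusted p 0.034 in edgeR), and without sham replicate 1 it was at -0.09.

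Plasminogen activation is the reaction that cell-surface Anxa2 and S100a10 speed up, and genes of it that rose with Anxa2 included both Plat and Plaur. Over all genes tested, 11.8% were called higher and 11% lower. Plat, the tissue plasminogen activator that docks on Anxa2, had 341.1, 441.8, 281.1 and 260.1 CPM in BDL, against 71.84, 65.1 and 55.35 CPM in sham, or 2.38 higher on the log2 scale (SE 0.24, edgeR adjusted p 0.00114). Plaur, the urokinase receptor, was higher by 1.64 (SE 0.25, adjusted p 0.0046). Plg, the plasminogen gene of hepatocytes, had 307.1, 0.07332, 0.01646 and 621.4 CPM in BDL, against 0.6356, 3.124 and 31.15 CPM in sham. The high BDL values were those of the libraries with hepatocyte transcripts, and Plg was not called. Plau was scarce, with means of 0.6296 CPM in BDL and 0.4278 CPM in sham. Neither Plau (0.60, SE 0.50) nor Serpinb2 (-0.87, SE 0.88) was called.

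Annexins are recruited to membrane wounds together with ferlins, calpains and the ESCRT machinery. Of 12 membrane repair genes tested, 5 were called higher and 1 lower, beside 11.8% higher and 11% lower over all genes. The list's median was 0.72 on the log2 scale. Pdcd6, the calcium sensor that brings ESCRT to a wound, was higher by 1.09 (SE 0.19, adjusted p 0.00758 in edgeR), Capn2, a calpain, by 0.85 (SE 0.17, adjusted p 0.0131) and Dysf, dysferlin, by 0.91 (SE 0.19, adjusted p 0.015). Pdcd6 kept its call in all 18 alternatives, Capn2 in 16 (adjusted p up to 0.0646) and Dysf in 12 (adjusted p up to 0.0759). Cav1, the caveolin that coats plasma membrane pits, had 126.8 ± 25.4 CPM in BDL (SD, n = 4) and 297 ± 31.3 CPM in sham (SD, n = 3), which is -1.19 on the log2 scale (SE 0.17, adjusted p 0.00337). The count of genes higher was less firm than the annexin calls, at 1 when BDL replicates 2 and 3 were left out together. It was 3 with sham replicate 3 omitted, and 2 when the library omitted was sham replicate 2 or either male BDL library.

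**Figure D5:**
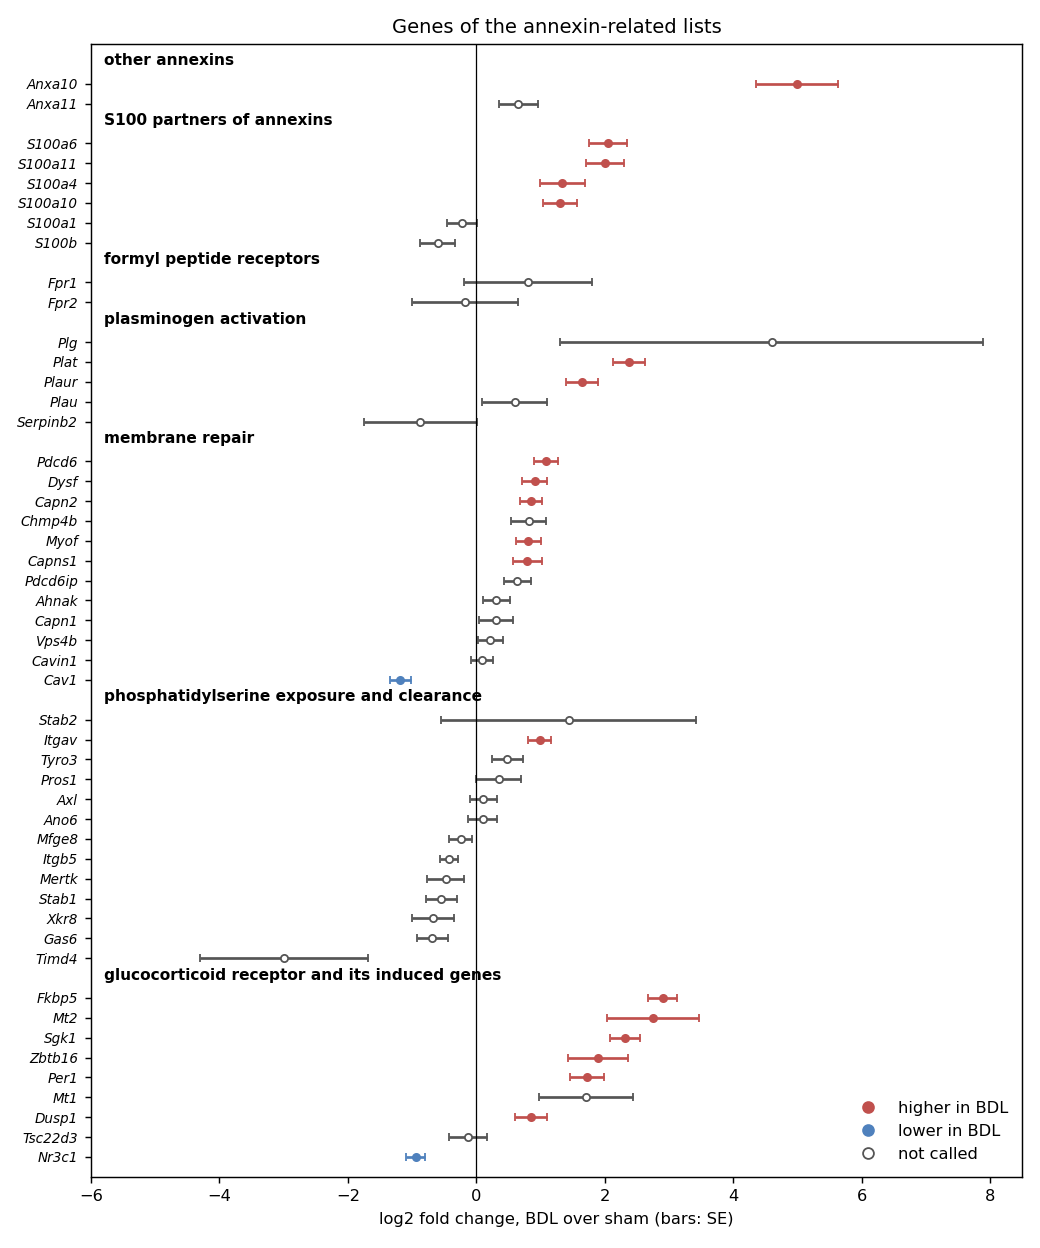
Log2 fold change, BDL over sham, of genes in the lists related to annexins; points are edgeR estimates, bars are 1 SE, filled points passed an adjusted p of 0.05. S100a6, S100a11, Plat, Fkbp5 and Sgk1 all lie at about 2 or above, whereas Cav1 and Nr3c1 lie near -1 and most genes of the phosphatidylserine list lie within 1 of 0.

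Phosphatidylserine exposure and clearance is the setting in which Anxa5 is best known. Of 13 genes tested, 1 was called higher and none lower, beside 11.8% higher and 11% lower over all genes, and the list's median was -0.25 on the log2 scale. The riser was Itgav, an integrin chain that binds the bridging protein of apoptotic cells, at 150.9 ± 40.4 CPM in BDL (SD, n = 4) and 77.52 ± 5.7 CPM in sham (SD, n = 3). Gas6, a bridging ligand of the Axl and Mertk receptors, had 689.6 ± 96.4 CPM in BDL (SD, n = 4) and 1093 ± 127 CPM in sham (SD, n = 3), with an edgeR adjusted p of 0.0812. Between 0 and 3 genes of this list were called lower in the alternatives, with 3 in DESeq2 and 3 with an acinar covariate.

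Anxa1 was first described as a glucocorticoid-induced protein, so the receptor and its well-known induced genes were set beside it. Of 9 genes, 6 were called higher and 1 lower, beside 11.8% higher and 11% lower over all genes. The list's median was 1.73 on the log2 scale. Tsc22d3 (-0.13, SE 0.30, adjusted p 0.779 in edgeR) and Mt1 (1.71, SE 0.73, adjusted p 0.135) did not pass. Fkbp5, a chaperone that dampens the receptor, had 392, 517.9, 378.6 and 269.4 CPM in BDL, against 46.01, 62.11 and 54.76 CPM in sham, or 2.90 higher on the log2 scale (SE 0.23, edgeR adjusted p 0.00058). Sgk1, a kinase of ion transport, was higher by 2.31 (SE 0.23, adjusted p 0.00104) and Per1, a clock gene, by 1.73 (SE 0.26, adjusted p 0.00466). The gene that fell was Nr3c1, the glucocorticoid receptor itself, at 66.56 ± 11.7 CPM in BDL (SD, n = 4) and 130.6 ± 8.2 CPM in sham (SD, n = 3). The number higher was 3 when BDL replicate 1, or either of sham replicates 1 and 2, was omitted, and also when both BDL libraries with hepatocyte transcripts were. Whether the receptor had a part in the Anxa1 difference was not tested.

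For the 4 members that rose, the genes whose pattern over the 7 libraries was most like theirs were found among 9889 named protein-coding genes by the root mean square difference of centred log2 CPM. For Anxa1 these were Haus6 (0.111), Tdg (0.13) and Lgals3 (0.148), and for Anxa2 they were Mcm7 (0.0845), Tpm4 (0.1) and H2az1 (0.117). Anxa3 was closest to Timm50 (0.0689), Ntmt1 (0.0817) and Ccdc122 (0.0964). Anxa8 had looser neighbours, Cks1b (0.174), Stmn1 (0.175) and Ncapg2 (0.177). The measure describes likeness over 7 libraries that share 2 surgeries, and many genes that differ between the surgeries by the same amount would score well.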

How the data were processed

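Bulk RNA-Seq libraries of whole EHBDs (4 BDL, 3 sham) were made with a SMART-Seq poly-A kit that does not mark strand. The authors quantified reads with Salmon against GENCODE release 33 (GRCm39) and summed them to genes with tximeta. What the authors deposited is a table of estimated counts summed by gene, rounded to integers, without normalization. No column was left unused. Gene symbols, coordinates and canonical transcript lengths came from GENCODE release 39, which matched 55563 identifiers; the 502 without a match held 0.0335% of counts. Unstranded counting and the split of reads between overlapping genes could shift the members with shared exons.

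Here, genes whose counts summed to 10 or more over the 7 libraries entered a quasi-likelihood F test in edgeR 4.0.16 (R 4.3.3) with TMM scaling and a model of sex plus surgery, which left 4 residual degrees of freedom. P-values were adjusted by Benjamini-Hochberg and called at 0.05. The edgeR fit of sex plus surgery was also run on counts simulated with the means and dispersions of these data. SE is the absolute log2 fold change divided by the square root of F. DESeq2 1.42.0 and limma 3.58.1 (voom) were alternatives, with other scalings, filters, covariates and left-out libraries. Every pair of libraries differed by more than sampling noise (chi-square of 202.3 or more for each degree of freedom). All 10 members are named; other genes are the up to 4 of each pathway list with the smallest p, up to 2 of a marker list where one is set beside an annexin (the 4 keratins, Sox9, Prom1 and Ptprc were named after their values were seen), and the 3 genes most like a member. Tsc22d3, Mt1, Plau, Serpinb2 and the neutrophil markers were also named after their values were seen. Members and lists were chosen with earlier results of these data known. Comparisons of annexin proteins were not made. One gene of the plasminogen list, and the list's count and median, are not reported here.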

Additional observations from a re-analysis of the deposited data

How the results depend on the processing

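In all 18 alternatives 4 annexins were called higher and 0 lower. The sign of 3 members that were not called changed. Anxa6 (0.11) was at -0.013 with upper quartile scaling, -0.11 with an acinar covariate and -0.033 without BDL replicates 1 and 4, and between -0.21 and 0.28 with single libraries left out. Anxa7 (0.07) was at -0.0497 with upper quartile scaling and -0.016 with the acinar covariate, and between -0.0088 and 0.14 with single libraries left out. Anxa13 (-0.26) ran between -0.52 and 0.087 with single libraries left out, and was above 0 without sham replicate 1. Among scarce related genes, Fpr1 (0.80) ran between -0.087 and 2.58 with single libraries left out, and Fpr2 (-0.18) was at 0.284 in limma-voom, 0.59 with no sex term and 0.435 without BDL replicates 2 and 3, and between -1.17 and 0.644 with single libraries left out. Upper quartile scaling moved the median log2 fold change of all genes to -0.13. The transcriptome-wide calls were 2976 higher and 2782 lower in BDL. The lower count was 4178 in DESeq2 and 1692 without BDL replicates 2 and 3, and single libraries left out gave 1678 to 3152 higher (lowest without BDL replicate 1) and 1431 to 2883 lower (lowest without BDL replicate 1). The causes were not tested. No paired analysis was possible because the labels tie no BDL library to a sham library. With 4 and 3 libraries the SE of an annexin was 0.17 to 0.33 on the log2 scale, which limits what can be seen for the 6 members not called.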
